A study of Mus musculus with 27 samples.

Results

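The genes described here are 33 members of the pathways that build cholesterol and fatty acids, followed across mouse bone marrow-derived macrophages that received interleukin 4 (IL4), dexamethasone (Dex), corticosterone (Cort) or vehicle. They were listed by name as genes of these pathways, and all 33 of 33 were found among the 29872 genes counted. Each of the 33 also passed the filter on low counts, which kept 14589 genes, and the least abundant of them averaged 77.2 reads per library. They comprise 8 enzymes that lead to mevalonate and squalene, 10 enzymes that turn squalene into cholesterol, 6 regulators and sterol carriers, and 9 enzymes of fatty acid synthesis and desaturation.

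Male mice aged 8 to 10 weeks supplied the marrow, which became macrophages over 5 days in medium with 20% serum and 10% L-cell conditioned medium. The knockout (KO) mice were LysM-Cre+/+; GRIP1fl/fl, in which Cre made from a myeloid locus deletes a floxed part of Ncoa2, the gene of the nuclear receptor coregulator GRIP1. The wild-type (WT) libraries are called LysM-Cre+/+; GRIP1wt/wt in the genotype field and BL6 in the titles, so it is not certain that they carry Cre. Cells received IL4 at 10 ng/ml, which drives alternative activation, the synthetic glucocorticoid dexamethasone at 100 nM, the natural glucocorticoid corticosterone at 500 nM, or vehicle. Treatment with IL4 or either glucocorticoid lasted 24 h, and the titles give no time for vehicle. KO groups held 3 libraries with IL4 and 4 each with Dex, Cort and vehicle, and WT groups held 3 libraries each. The labels do not say whether libraries came from separate mice, so the p-values reflect library-to-library variation alone, some or all of which could be technical.

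Cells make cholesterol from acetyl-CoA by way of HMG-CoA, mevalonate, squalene and lanosterol, and make fatty acids from the same precursor by way of malonyl-CoA. The transcription factors SREBP1 and SREBP2, encoded by Srebf1 and Srebf2, sit in the endoplasmic reticulum with the carrier Scap and are held there by the Insig proteins while sterols are plentiful. When sterols run low they are carried to the Golgi, cut, and released to the nucleus, where SREBP2 mainly drives sterol genes and SREBP1 mainly fatty acid genes. Macrophages take up much cholesterol from lipoproteins and dead cells, and sterol intermediates and oxysterols feed back on these genes and on the liver X receptors (LXR).

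Libraries held 20162729 to 48023102 counts in genes. Levels are given as CPM, the reads of a gene scaled to a common library size, with TMM factors that correct for libraries of different composition. Ncoa2 was at 16.1 to 26.0 CPM in KO libraries, against 55.7 to 93.4 CPM in WT libraries, with no overlap. The counts cover the whole gene, so transcripts that lack the floxed part are still counted. The summed level of 6 macrophage markers was 5765 to 6921 CPM in KO libraries and 5459.55 to 6598 CPM in WT libraries. Markers of other cells differed by genotype: 5 stromal markers summed to 10.2 to 41.9 CPM in KO libraries against 149.5 to 781 CPM in WT libraries, and 6 neutrophil markers to 5.82 to 16.2 CPM in KO against 41.5 to 289 CPM in WT. In WT the libraries numbered 1 had the highest stromal and neutrophil sums in every treatment. Arg1, an enzyme that IL4 induces, was at 117 and 78.4 CPM in KO vehicle libraries 2 and 3, at 68.0 CPM in KO Dex library 2 and at 67.1 CPM in WT Dex library 1, while the other libraries without IL4 held 0.114 to 12.2 CPM.

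Promoter sequence was set beside the expression data because several sterol enzymes rose with IL4. The RefSeq promoter table (GRCm38.p6, 250 bases before to 50 bases after the start site) held 26 of the 33 members, and the first listed promoter of each gene was read. A strict sterol regulatory element, the letters TCACNCCAC on either strand, was found in 1 of these 26 windows, that of Hmgcs1, and in 1.22% of all 27025 windows of the table. The NF-Y motif CCAAT was found in 20 of 26, against 37.9% of all windows, and the Sp1 motif GGGCGG in 20 of 26, against 35.9% of all windows. With 1 mismatch allowed in the sterol regulatory element, a search added after the exact one, 9 of 26 windows matched, against 24% of all. These matches are letters in a window and not measured binding sites, each motif was searched on its own, and matches of different motifs may overlap.

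The 6 windows printed here belong to the sterol enzymes that were higher with IL4 in both genotypes and had a promoter in the table (6 of 7 such enzymes). Each runs from base −150 to base −1 before the start site, 5′ to 3′ on the gene's strand, and capitals mark exact matches of the 3 motifs on either strand. The windows lie at chr13:119690201-119690350 on the plus strand for Hmgcs1, chr8:122443423-122443572 on the minus strand for Mvd, chr10:76531455-76531604 on the plus strand for Lss, chr5:4104698-4104847 on the minus strand for Cyp51, chrX:72918371-72918520 on the plus strand for Nsdhl and chr7:143823017-143823166 on the plus strand for Dhcr7.
Hmgcs1: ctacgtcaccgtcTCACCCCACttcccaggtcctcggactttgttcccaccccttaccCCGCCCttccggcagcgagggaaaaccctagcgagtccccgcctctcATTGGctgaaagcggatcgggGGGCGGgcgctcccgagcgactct
Mvd: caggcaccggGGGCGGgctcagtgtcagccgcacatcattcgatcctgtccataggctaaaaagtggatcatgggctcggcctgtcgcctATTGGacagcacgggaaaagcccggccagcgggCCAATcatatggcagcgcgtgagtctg
Lss: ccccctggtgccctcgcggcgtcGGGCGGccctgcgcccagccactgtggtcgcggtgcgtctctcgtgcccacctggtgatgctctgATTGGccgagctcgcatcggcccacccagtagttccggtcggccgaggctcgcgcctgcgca
Cyp51: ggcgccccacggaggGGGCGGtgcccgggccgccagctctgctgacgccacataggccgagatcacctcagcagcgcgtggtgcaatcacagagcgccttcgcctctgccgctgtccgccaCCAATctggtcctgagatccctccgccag
Nsdhl: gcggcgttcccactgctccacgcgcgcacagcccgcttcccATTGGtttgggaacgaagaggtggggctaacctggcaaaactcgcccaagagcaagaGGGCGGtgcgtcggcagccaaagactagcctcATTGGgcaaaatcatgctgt
Dhcr7: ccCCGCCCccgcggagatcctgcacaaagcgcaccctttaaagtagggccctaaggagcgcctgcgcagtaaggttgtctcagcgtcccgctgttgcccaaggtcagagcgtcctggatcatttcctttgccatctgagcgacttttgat

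Within these 150 bases Hmgcs1 carried 1 sterol regulatory element, 1 NF-Y match and 2 Sp1 matches. Mvd and Nsdhl each carried 2 NF-Y matches and 1 Sp1 match, and Lss and Cyp51 1 of each. Dhcr7 carried 1 Sp1 match and no NF-Y match, in the first of 3 promoters listed for it. Any part of these motifs in the responses to IL4 was not tested.

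**Figure D1:**
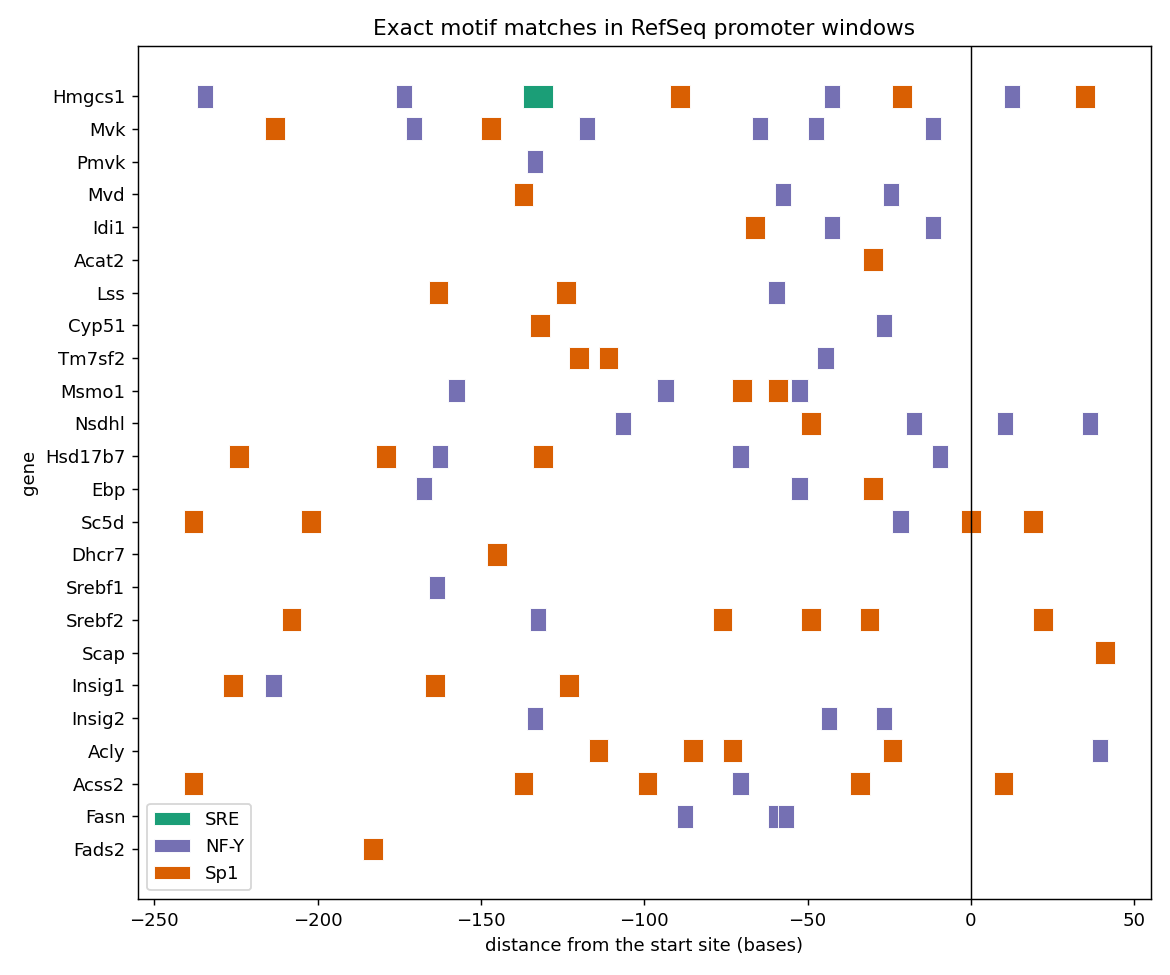
Exact motif matches in the promoter windows of the 24 members that held any match, drawn as boxes along the distance from the start site in bases (line at 0), with a colour for each motif. NF-Y and Sp1 matches were each found in 20 genes, and the only exact sterol regulatory element is that of Hmgcs1.

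Per kilobase of merged exons, levels in WT cells with vehicle spanned a wide range. Acly, which makes cytosolic acetyl-CoA from citrate, was highest at 60.4 ± 1.47 CPM per kb (SD, n = 3), followed by Srebf2 at 42.2 ± 3.41. Scd1 and Acss2 were lowest, at 0.827 ± 0.287 and 0.620 ± 0.074 CPM per kb, and these neighbours in the order did not differ beyond their spread. The length joins the exons of all annotated transcripts of a gene, 10163 bases for Acss2 and 4892 for Scd1, and the order depends on it. In CPM Acss2 averaged 6.30 and Scd1 4.04. Scd2, the other stearoyl-CoA desaturase, stood at 23.1 ± 2.92 CPM per kb, well above Scd1 per length. The coefficient of variation between libraries of a group had a median of 6.17% over 264 combinations of gene and group, and its highest value, 39.4%, was that of Scd1 in WT Cort libraries.

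IL4 raised part of the sterol pathway in both genotypes, and no change was called in Srebf1, Srebf2 or Scap. In KO cells 17 of the 33 members were higher and 0 lower than with vehicle, where 14.5% of all genes tested were called higher and 12.0% lower. In WT cells 14 of 33 were higher and 3 lower, where 14.8% and 15.3% of all genes tested were called so. In either direction that is 51.5% of the members in each genotype, beside 26.5% of all genes in KO and 30.1% in WT. The median log2 fold change of the members was 0.20 in KO and 0.23 in WT, against 0.01 in KO and −0.01 in WT over all genes. In a bulk sample, a change in the share of cells that express a gene and a change of RNA per cell cannot be told apart.

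Of the 8 enzymes up to squalene, 4 rose in KO cells and 4 in WT cells with IL4. Mvd (ENSMUSG00000006517, GRCm38 chromosome 8, 122433601 to 122443422, minus strand) removes the carboxyl group of mevalonate pyrophosphate. It stood at 77.9, 86.7 and 71.2 CPM in KO IL4 libraries, against 41.9, 61.7, 55.3 and 53.2 CPM in KO vehicle libraries, a log2 fold change of 0.57 ± 0.09 (SE, adjusted p = 5.4e-05). In WT cells Mvd was at 79.1, 75.9 and 85.6 CPM with IL4, against 43.6, 39.7 and 39.4 CPM with vehicle, a log2 fold change of 0.97 ± 0.10 (SE, adjusted p = 6.42e-08). Every IL4 library lay above every vehicle library of its genotype, and KO vehicle library 1 was the lowest of its group. KO vehicle libraries 2 and 3, both high in Arg1, were the highest of that group for Mvd and for Hmgcs1.

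Hmgcs1 (ENSMUSG00000093930, GRCm38 chromosome 13, 119690379 to 119708260, plus strand) condenses acetyl-CoA units into HMG-CoA. Its level was 227, 235 and 251 CPM with IL4 and 132, 184, 178 and 164 CPM with vehicle in KO (0.53 ± 0.09, adjusted p = 8.73e-05). In WT it was 196, 201 and 232 CPM with IL4 and 131, 137 and 135 CPM with vehicle (0.64 ± 0.09, adjusted p = 1.18e-05), again with no overlap in either genotype. Of its exon bases 12.1% lie opposite the predicted gene Gm48342. Fdft1, which joins farnesyl units into squalene, rose by 0.40 ± 0.10 in KO and 0.32 ± 0.10 in WT, and 18.3% of its exon bases lie opposite exons of Ctsb. Idi1, the isopentenyl isomerase, rose in KO (0.33 ± 0.09, adjusted p = 0.00611), and Mvk, the mevalonate kinase, rose in WT (0.33 ± 0.12, adjusted p = 0.0409). Mvk lost its call without any one of WT vehicle libraries 1, 2 and 3 and WT IL4 libraries 2 and 3 (adjusted p 0.0576 to 0.133), and Fdft1 in WT without vehicle library 1 or 2 or IL4 library 3 (0.0564 to 0.128). With the replicate number as a block, Idi1 (0.24, adjusted p = 0.0323) and Acat2 (0.22, 0.0418), which makes acetoacetyl-CoA, were also called in WT, and DESeq2 called Idi1 there too (0.25, adjusted p = 0.0412).

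KO IL4 library 4 was the lowest of its group for several early enzymes and the highest for others. It was highest for Hmgcs1 (251 CPM against 227 and 235 CPM) and Fdft1 (60.2 CPM against 54.2 and 54.1 CPM). KO IL4 library 4 held 25.8 CPM of Mvk against 36.7 and 38.6 CPM in the other KO IL4 libraries. The same library held 18.3 CPM of Pmvk, the phosphomevalonate kinase, against 29.1 and 31.4 CPM, and 21.4 CPM of Fdps, the farnesyl diphosphate synthase, against 32.8 and 35.4 CPM. Mvk, Pmvk and Fdps were not called in KO, with log2 fold changes of 0.04 ± 0.11, 0.01 ± 0.13 and 0.11 ± 0.12. For Fdps 26.7% of the exon bases are shared with the predicted gene Gm43738 on the same strand, which makes its counts less certain.

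Of the 10 enzymes from squalene to cholesterol, 8 rose in KO and 4 in WT with IL4. Dhcr7 (ENSMUSG00000058454, GRCm38 chromosome 7, 143823145 to 143848410, plus strand), the reductase of the last step, was at 99.4, 94.4 and 115 CPM with IL4 and 51.00, 62.9, 64.4 and 63.7 CPM with vehicle in KO (0.77 ± 0.10, adjusted p = 3.91e-06). In WT it was at 94.1, 106 and 94.7 CPM with IL4 and 47.8, 51.4 and 47.01 CPM with vehicle (1.01 ± 0.11, adjusted p = 1.18e-07). The groups did not overlap in either genotype, and the WT level with IL4 was 2.02-fold that with vehicle. Lss, which closes squalene epoxide into lanosterol, rose by 0.43 ± 0.09 in KO. In WT it was at 57.9, 60.4 and 64.6 CPM with IL4 and 48.5, 44.2 and 43.8 CPM with vehicle (0.42 ± 0.10, adjusted p = 0.00204).

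Nsdhl, a C4 decarboxylase of the sterol ring, was at 41.3, 41.2 and 59.02 CPM with IL4 and 30.01, 32.6, 30.9 and 31.7 CPM with vehicle in KO (0.59 ± 0.09, adjusted p = 2.98e-05). The highest of these was KO IL4 library 4, the library that was lowest for Mvk, Pmvk and Fdps. In WT Nsdhl rose by 0.39 ± 0.10. Cyp51, the lanosterol demethylase, was at 168, 180.3 and 189 CPM with IL4 and 109.8, 156, 133 and 125 CPM with vehicle in KO (0.45 ± 0.08, adjusted p = 0.000211), and rose by 0.35 ± 0.09 in WT.

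Sqle, the squalene epoxidase, Msmo1, the C4 methyl oxidase, Hsd17b7, a sterol ketone reductase, and Sc5d, the C5 desaturase, were called for IL4 against vehicle in KO and not in WT. They rose in KO by 0.34, 0.26, 0.50 and 0.25 on the log2 scale. Their WT values were 0.13, 0.12, 0.16 and 0.09, and no difference between the genotypes was called for them (adjusted p of the interaction 0.636, 0.642, 0.524 and 0.71). The call of Sc5d did not hold without any one of the 4 KO vehicle libraries or KO IL4 library 4, and without this last library its log2 fold change was 0.05 (adjusted p = 0.653). Tm7sf2, a sterol C14 reductase, and Ebp, the sterol isomerase, were not called by edgeR for IL4 against vehicle in either genotype, while DESeq2 called Ebp in WT (0.13, adjusted p = 0.0269; 0.0615 in edgeR). Tm7sf2 differed by −0.12 ± 0.09 in KO and −0.08 ± 0.09 in WT, and 12.1% of its exon bases are shared with Vps51 on the same strand.

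**Figure D2:**
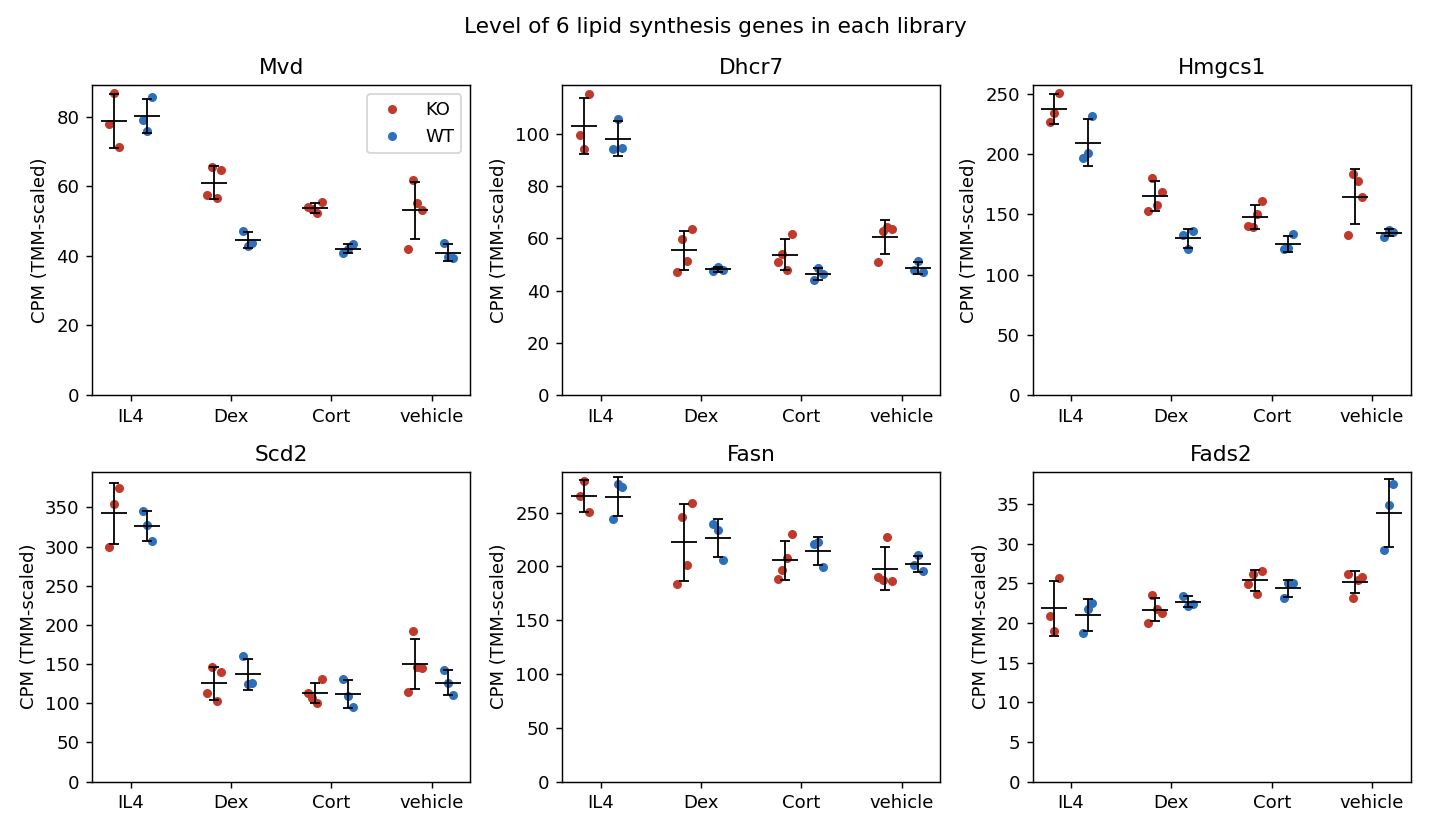
Level in CPM of Mvd, Dhcr7, Hmgcs1, Scd2, Fasn and Fads2 in each of 27 libraries (points), by treatment and genotype (KO left of WT), with mean and SD as bars and linear axes from 0. The IL4 libraries of the first 4 genes lie above all other libraries of both genotypes, and Fads2 is highest in WT vehicle libraries.

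No SREBP gene was called with IL4. Srebf1 differed from vehicle by −0.12 ± 0.06 in KO with IL4 and by 0.01 ± 0.07 in WT, Srebf2 by 0.05 ± 0.08 in KO and −0.02 ± 0.09 in WT, and Scap by −0.04 ± 0.05 in KO and −0.03 ± 0.06 in WT, with no call. The levels of Srebf2 were 269, 308 and 319.9 CPM in WT IL4 libraries and 278, 305 and 327 CPM in WT vehicle libraries, which overlapped. Of the 6 genes of this group 2 rose in WT, both of them retention factors of SREBP.

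Insig2 (chromosome 1, 121304353 to 121332589, minus strand) was at 44.00, 46.8 and 40.1 CPM with IL4 and 37.3, 42.2, 41.9 and 35.96 CPM with vehicle in KO, which overlapped (0.15 ± 0.06, adjusted p = 0.0905). In WT it was at 53.2, 46.7 and 51.1 CPM with IL4 and 36.5, 37.2 and 34.8 CPM with vehicle (0.48 ± 0.07, adjusted p = 9.36e-06), with no overlap. The interaction, KO response minus WT response, was −0.33 ± 0.09 with an unadjusted p of 0.00205 and an adjusted p of 0.244, so the difference was not called. Insig1 rose in WT (0.23 ± 0.08, adjusted p = 0.0266), a call lost without WT vehicle library 1, 2 or 3 or WT IL4 library 3 (adjusted p 0.0526 to 0.157). Stard4, a carrier of free sterol in the cytosol, was not called with IL4 in KO (0.04 ± 0.07) or WT (−0.01 ± 0.07).

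Fatty acid enzymes were called in both directions with IL4 in WT and only higher in KO. In KO cells 5 of 9 rose, and in WT cells 4 of 9 rose and 3 fell. Scd2 (ENSMUSG00000025203, GRCm38 chromosome 19, 44293674 to 44306864, plus strand), which places the first double bond, had the largest response of the module. It was at 299, 354 and 374 CPM with IL4 and 115, 192, 146 and 146 CPM with vehicle in KO, 2.29-fold (1.19 ± 0.15, adjusted p = 3.54e-06). In WT it was at 346, 328 and 307 CPM with IL4 and 142, 126 and 110.3 CPM with vehicle, 2.59-fold (1.37 ± 0.16, adjusted p = 7.63e-07). The groups stood well apart in both genotypes.

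Acaca, Fasn and Acly rose less. Acaca, which makes malonyl-CoA, rose by 0.47 ± 0.12 in KO and 0.49 ± 0.13 in WT, a KO call lost without KO IL4 library 4 (0.34, adjusted p = 0.0635). Fasn, the fatty acid synthase, rose by 0.42 ± 0.10 in KO and 0.39 ± 0.11 in WT. Acly rose by 0.20 ± 0.06 in KO and 0.20 ± 0.07 in WT; the WT call was lost without WT vehicle library 1 or WT IL4 library 2 (adjusted p 0.065 to 0.0686), and the KO call without KO IL4 library 2 (0.12, adjusted p = 0.19).

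The 3 that fell in WT were the desaturases Fads2 and Fads1 and the elongase Elovl6. Fads2 (ENSMUSG00000024665, GRCm38 chromosome 19, 10062765 to 10101746, minus strand), the first desaturase of polyunsaturated fatty acid synthesis, was at 18.8, 21.8 and 22.5 CPM with IL4 and 29.2, 34.8 and 37.5 CPM with vehicle in WT (−0.69 ± 0.10, adjusted p = 7.96e-06). Fads1, a later desaturase of the same pathway, was at 129.9, 132 and 133 CPM with IL4 and 149, 167 and 162 CPM with vehicle (−0.27 ± 0.07, adjusted p = 0.00397). Elovl6, which elongates palmitate, was at 7.41, 7.02 and 8.60 CPM with IL4 and 9.92, 10.8 and 10.6 CPM with vehicle (−0.44 ± 0.11, adjusted p = 0.00331). In each of these genes all WT IL4 libraries lay below all WT vehicle libraries. None was called in KO, where the values were −0.20 ± 0.09 for Fads2, −0.07 ± 0.07 for Fads1 and −0.00 ± 0.10 for Elovl6.

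Scd1 was low throughout. In KO it averaged 2.19 ± 0.269 CPM with IL4 (SD, n = 3) and 1.31 ± 0.152 CPM with vehicle (SD, n = 4). Its KO response of 0.75 ± 0.28 (SE, adjusted p = 0.0482) had no overlap of libraries, a call lost without any one of KO vehicle libraries 1, 3 and 4 and KO IL4 libraries 1, 2 and 4 (adjusted p 0.0574 to 0.136). In WT it averaged 5.62 ± 1.71 CPM with IL4 and 4.04 ± 1.40 CPM with vehicle, SD, n = 3 each (0.47 ± 0.27, adjusted p = 0.207). Within each WT replicate number the IL4 library was the higher, and a fit blocked on replicate number gave 0.48 in WT (adjusted p = 0.00319). The summed level of 4 adipocyte markers was 96.8 to 130 CPM with IL4 and 37.5 to 73.6 CPM with vehicle in WT, nearly all of it Fabp4, a gene that macrophages also express, and their part in the Scd1 values was not tested. Both tested adipocyte markers, Fabp4 and Adipoq, were called higher with IL4 in WT, where Adipoq averaged 0.662 CPM with IL4 and 0.0216 CPM with vehicle. The defining adipocyte markers Adipoq, Plin1 and Cidec reached at most 0.776, 0.0775 and 0.038 CPM in any library.

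Of the 17 members called in each genotype, 11 were called in both in the same direction, 64.7% of either list, and over all genes 2762 were, 71.3% of the KO list and 62.9% of the WT list. The 11 were Hmgcs1, Mvd, Fdft1, Lss, Cyp51, Nsdhl, Dhcr7, Acly, Acaca, Fasn and Scd2. No member passed the interaction test for IL4 in edgeR or DESeq2 (0.0274% of all genes did in edgeR, 0.00685% higher and 0.0206% lower), and 6 had an unadjusted p under 0.05. Among these 6, Mvd differed by −0.40 ± 0.13 (adjusted p = 0.31), Fads2 by 0.48 ± 0.13 (0.229) and Elovl6 by 0.44 ± 0.15 (0.348), as KO response minus WT response. Without KO vehicle library 1 the interaction of 1 member was called. KO vehicle libraries 2 and 3, high in Arg1 and the highest of their group for Mvd, enter every KO response. Fold changes and interactions without them are not given here.

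**Figure D3:**
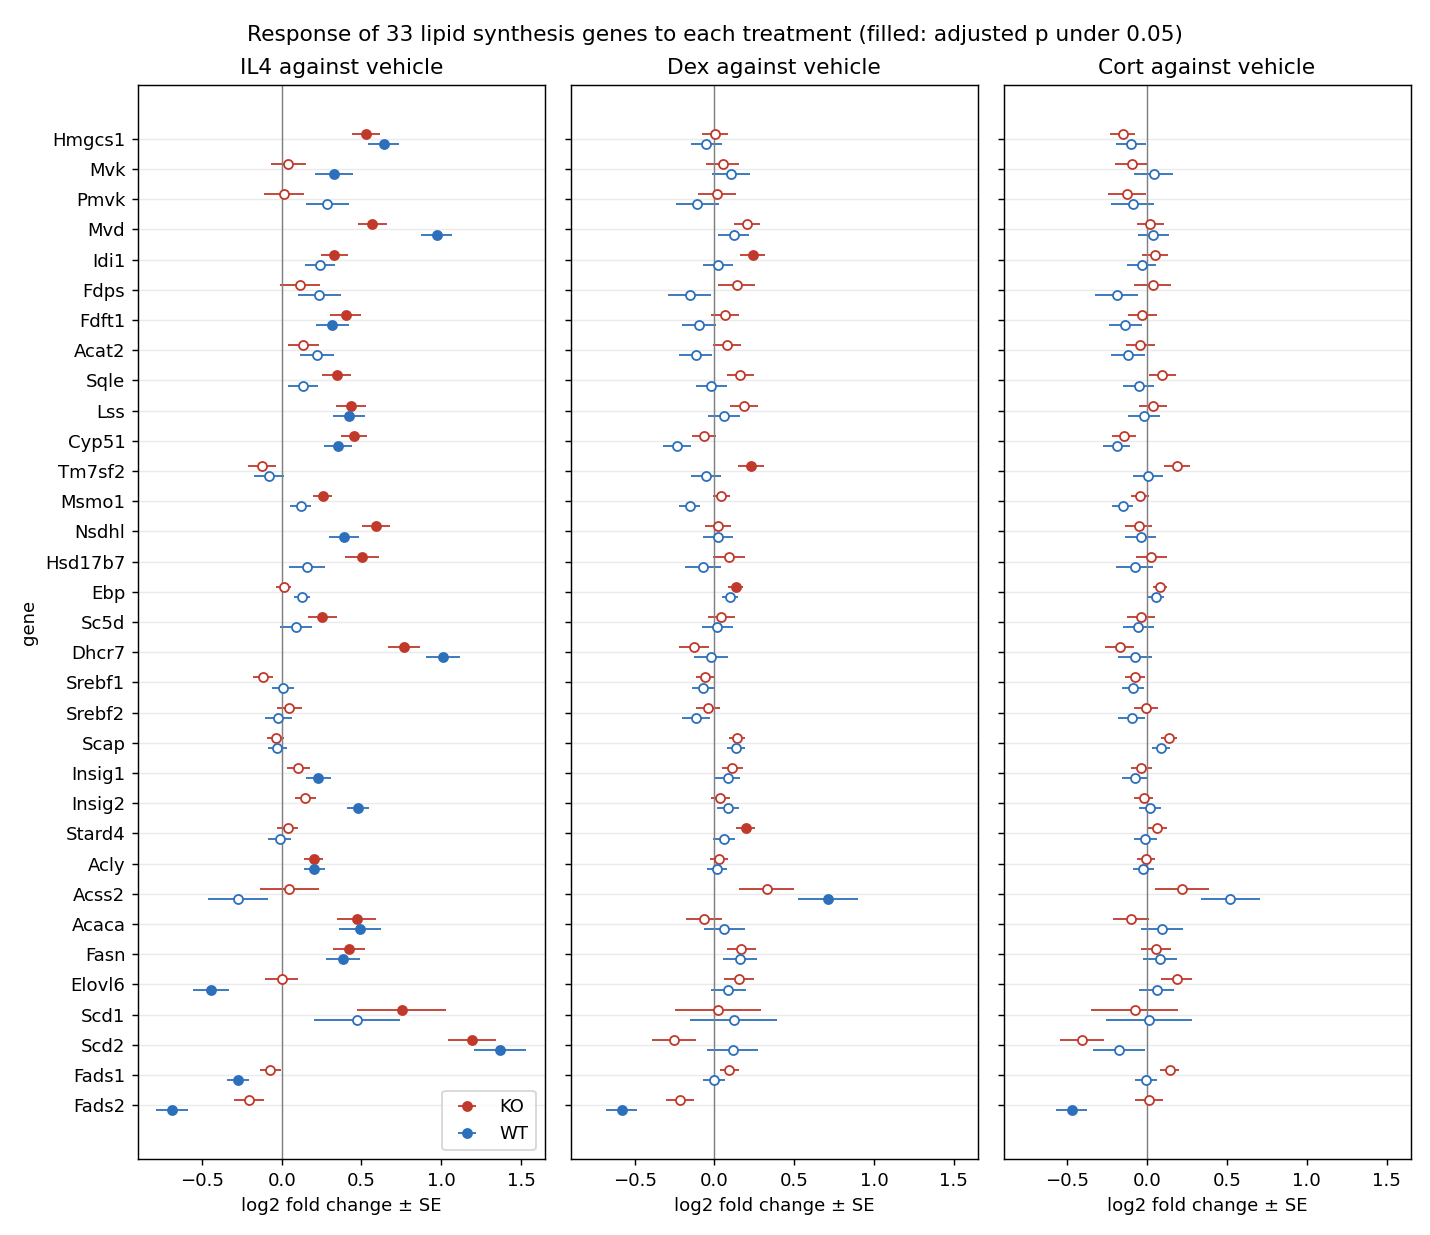
Log2 fold change against vehicle with its SE for each of the 33 members in KO (red, upper) and WT (blue, lower), with a panel each for IL4, Dex and Cort, and filled points where the adjusted p was under 0.05. IL4 values lie right of 0 for most sterol enzymes in both genotypes, while those of Dex and Cort lie near 0.

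Other genes of sterol synthesis and supply, from lists that are not part of the 33, gave a mixed picture with IL4. The counts of these lists stand beside 26.5% of all genes called in KO and 30.1% in WT, and nothing is read from shares near these. Of 6 further sterol synthesis enzymes, 1 rose and 1 fell in KO and 1 rose and 1 fell in WT. The one that fell in both was Lbr, a sterol reductase of the nuclear envelope (−0.68 ± 0.11, adjusted p = 0.000112 in KO, −0.77 ± 0.12, adjusted p = 2.67e-05 in WT). Of 11 tested genes of sterol uptake, SREBP processing and regulated degradation, 4 rose and 1 fell in KO and 3 rose and 2 fell in WT. Among them the lysosomal cholesterol exporter Npc1 rose by 0.40 ± 0.09 in KO and 0.64 ± 0.09 in WT.

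Of 10 genes of LXR, its targets, sterol storage and efflux, 3 rose and 2 fell in KO with IL4, and 2 rose and 2 fell in WT. The sterol exporters Abcg1 and Abca1 moved in opposite directions in WT. Abcg1 rose by 1.17 ± 0.12 in KO and 1.72 ± 0.13 in WT, while Abca1 fell in WT (−1.22 ± 0.34, adjusted p = 0.00812). Soat1, which esterifies cholesterol for storage, rose by 0.45 ± 0.06 in KO and 0.68 ± 0.07 in WT. Of 17 genes of fatty acid elongation, activation and supply, 3 rose and 2 fell in KO and 2 rose and 4 fell in WT. Lpin1, a phosphatidate phosphatase, differed by 0.51 ± 0.16 in KO and 1.04 ± 0.17 in WT, and Hacd2, a dehydratase of chain elongation, by −0.36 ± 0.10 in KO and −0.76 ± 0.11 in WT.

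By edgeR, glucocorticoids changed few members. With Dex 4 of 33 rose and 0 fell in KO, where 18.4% of all genes tested were called (9.10% higher, 9.29% lower). In WT 1 rose and 1 fell with Dex, where 13.7% of all genes were called (7.66% higher, 6.03% lower). In KO 0 members were called with Cort, where 12.1% of all genes were (6.01% higher, 6.07% lower), with 4 at an unadjusted p under 0.05 in edgeR and 1 called by DESeq2, which was Scd2 (−0.42, adjusted p = 0.029). With Cort 0 rose and 1 fell in WT, where 5.94% of all genes were called (3.48% higher, 2.46% lower). All treatments of a genotype were compared with the same vehicle libraries.

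Fads2 was the member called lower with both glucocorticoids in WT, against the same vehicle libraries as with IL4. It was at 23.4, 22.2 and 22.3 CPM with Dex, 23.1, 25.01 and 24.99 CPM with Cort and 29.2, 34.8 and 37.5 CPM with vehicle, and every glucocorticoid library lay below every vehicle library. Its log2 fold change was −0.58 ± 0.10 (SE, adjusted p = 0.00016) with Dex and −0.47 ± 0.10 (SE, adjusted p = 0.00319) with Cort. In KO, Fads2 was at 19.99, 23.5, 21.8 and 21.3 CPM with Dex, 24.9, 26.2, 23.7 and 26.6 CPM with Cort and 26.2, 23.1, 25.4 and 25.8 CPM with vehicle, with no call in edgeR (−0.22 ± 0.09 with Dex and 0.01 ± 0.08 with Cort). The interaction with Cort, KO response minus WT response, was 0.48 ± 0.13 with an adjusted p of 0.202 in edgeR and was called by DESeq2 (0.49, adjusted p = 0.0444).

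Acss2, which makes acetyl-CoA from acetate, was at 7.91, 9.71 and 13.2 CPM with Dex and 6.89, 5.45 and 6.56 CPM with vehicle in WT (0.71 ± 0.19, adjusted p = 0.0107). All Dex libraries lay above all vehicle libraries, and library 3 was the highest. The call was lost without WT vehicle library 2 or WT Dex library 3 (adjusted p 0.0636 to 0.132), and either omission left 1 member called with Dex in WT. Without the Arg1-high libraries, WT Dex library 1 among them, 4 members were called. Blocked on replicate number, Cyp51 was also called with Dex in WT (−0.23, adjusted p = 0.0288). With Cort, Acss2 was at 8.24, 8.16 and 10.7 CPM in WT (0.52 ± 0.19, adjusted p = 0.113); a fit blocked on replicate number called it (0.51, adjusted p = 0.00809), which brought the Cort count in WT to 2. About 9.12% of the exon bases of Acss2 overlap Ggt7, Acss2os or Gss on the opposite strand.

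In KO cells edgeR called 4 members higher with Dex, by small amounts, and DESeq2 called Scap as well (0.14, adjusted p = 0.0301). Stard4 was at 137, 141, 137 and 143 CPM with Dex and 113, 120.4, 124 and 129 CPM with vehicle (0.19 ± 0.06, adjusted p = 0.0273). Ebp was at 79.2, 76.6, 76.04 and 74.95 CPM with Dex and 67.3, 72.6, 71.3 and 68.7 CPM with vehicle (0.13 ± 0.04, adjusted p = 0.0372). Tm7sf2 was at 26.5, 27.1, 26.5 and 26.95 CPM with Dex and 19.8, 24.8, 21.7 and 24.9 CPM with vehicle (0.23 ± 0.08, adjusted p = 0.0492). The groups of these 3 did not overlap, whereas those of Idi1 did (0.24 ± 0.08, adjusted p = 0.0372).

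These KO Dex calls depended on single libraries. None of the 4 was called without KO vehicle library 1 or without KO Dex library 2. The count of all members called was 1 without KO Dex library 3 or 4, and 2 without KO vehicle library 3, without KO Dex library 1 or without the Arg1-high libraries. Without the Arg1-high libraries Tm7sf2, Ebp and Stard4 were not called (adjusted p = 0.191, 0.0795 and 0.178). For Cort in KO, with the replicate number as a block, 2 members were called, Scd2 (−0.40, adjusted p = 0.00335) and Fads1 (0.14, adjusted p = 0.0341). Leaving out KO vehicle library 1 gave 3 calls for Cort in KO, and leaving out KO Cort library 4 gave 1.

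The Dex and Cort doses differed, 100 nM against 500 nM, so their values are set side by side and not compared as drugs. Scd2 was at 126 ± 20.9 CPM with Dex and 113 ± 13.01 CPM with Cort in KO (SD, n = 4 each), and at 137 ± 19.9 CPM with Dex and 112 ± 17.7 CPM with Cort in WT (SD, n = 3 each). Between these treatments as given, 0 members were called in KO and 0 in WT by edgeR and by DESeq2. In KO 5 had an unadjusted p under 0.05 in edgeR, where 0.322% of all genes were called (0.178% higher, 0.144% lower), and in WT 0 did, where 0.185% were (0.151% higher, 0.0343% lower). The 95% interval of the log2 difference reached at most 0.64 in size for any member in either genotype. No interaction of genotype with Dex or Cort was called for any member by edgeR, where 0.185% (0.0480% higher, 0.137% lower) and 0.0206% (0.00685% higher, 0.0137% lower) of all genes were, and 3 and 1 members had an unadjusted p under 0.05. DESeq2 called 0 and 1.

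Other genes around the pathway did respond to glucocorticoids. Ch25h, which makes a side-chain oxysterol that holds back SREBP processing, fell with Dex (log2 fold change −2.98 ± 0.34 in KO and −4.21 ± 0.42 in WT) and with Cort (−2.64 ± 0.33 in KO and −3.15 ± 0.38 in WT). Nr1h3, the gene of LXRα, fell with Dex (−0.38 ± 0.08 in KO and −0.37 ± 0.09 in WT) and with Cort (−0.40 ± 0.08 in KO and −0.32 ± 0.09 in WT). Of the 10 genes of LXR, storage and efflux, 2 rose and 3 fell in KO with Dex and 1 rose and 3 fell with Cort, while in WT 1 rose and 2 fell with either glucocorticoid. Of all genes, 18.4% were called with Dex and 12.1% with Cort in KO, and 13.7% and 5.94% in WT. The elongase Elovl5, of the 17 fatty acid supply genes, rose with Dex (0.34 ± 0.07, adjusted p = 0.00114 in KO, 0.58 ± 0.08, adjusted p = 1.86e-05 in WT) and with Cort (0.26 ± 0.07, adjusted p = 0.015 in KO, 0.36 ± 0.08, adjusted p = 0.00833 in WT).

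Set directly against the glucocorticoids, IL4 cells held higher levels of many members. Against Dex, 14 members were higher and 2 lower in KO, where 38.0% of all genes were called (20.2% higher, 17.8% lower), and 15 higher and 4 lower in WT, where 31.7% were (15.0% higher, 16.7% lower). Against Cort, 18 were higher and 3 lower in KO, where 37.9% of all genes were called (19.4% higher, 18.5% lower), and 18 higher and 3 lower in WT, where 31.7% were (14.8% higher, 16.9% lower). Blocked on replicate number, the counts were 19 in KO and 22 in WT against Dex, and 22 in KO and 25 in WT against Cort. The shares of all genes called in the blocked fit are not given here, so nothing is read from these larger counts. Scd2 differed between IL4 and Cort by 1.60 ± 0.15 in KO and 1.55 ± 0.16 in WT, and Dhcr7 by 0.94 ± 0.10 in KO and 1.09 ± 0.11 in WT. Cyp51 was at 158 ± 6.24 CPM with IL4, 105 ± 5.10 CPM with Dex and 108 ± 3.06 CPM with Cort in WT (SD, n = 3 each), log2 differences of 0.59 ± 0.09 (SE, adjusted p = 1.1e-05) and 0.54 ± 0.09 (SE, adjusted p = 3.02e-05). Acss2 was lower with IL4 than with Dex (−0.98 ± 0.19, adjusted p = 0.000235) or Cort (−0.79 ± 0.19, adjusted p = 0.00204) in WT. The vehicle, IL4 and glucocorticoid comparisons share libraries, so these values are not independent of those given above.

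**Figure D4:**
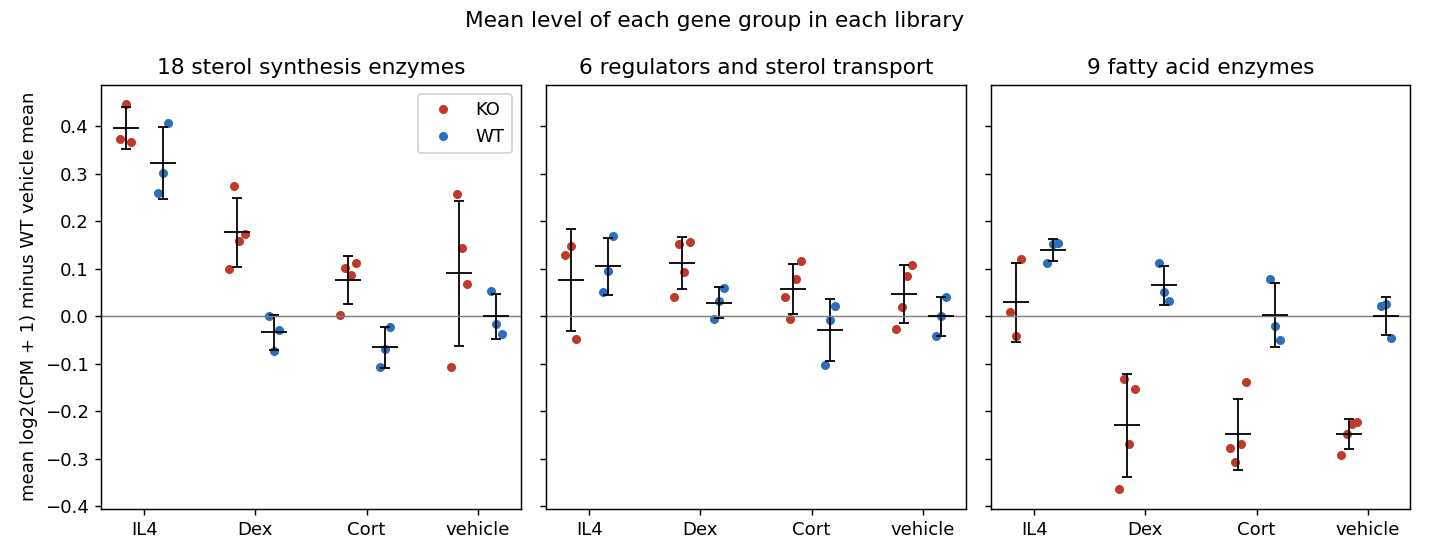
Mean over the genes of a group of log2(CPM + 1) minus the WT vehicle mean, in each of 27 libraries (points), by treatment and genotype (KO left of WT), with mean and SD as bars, for 18 sterol enzymes, 6 regulators and carriers and 9 fatty acid enzymes. Sterol enzymes are highest with IL4 (KO 0.37 to 0.45, WT 0.26 to 0.41), KO vehicle library 1 is the lowest of its group at −0.11, and fatty acid enzymes of KO cells lie under those of WT cells without IL4.

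As a group mean on the log2(CPM + 1) scale, the 18 sterol enzymes stood 0.40 ± 0.04 above the WT vehicle mean in KO IL4 libraries (SD, n = 3) and 0.32 ± 0.08 in WT IL4 libraries (SD, n = 3). With vehicle the KO libraries spread over −0.11 to 0.26 and the WT libraries over −0.04 to 0.05. The lowest KO vehicle library was number 1, and the highest was number 2, which was also the highest in Arg1. The 9 fatty acid enzymes stood at −0.25 ± 0.03 in KO vehicle libraries (SD, n = 4), below the WT vehicle libraries at −0.05 to 0.03, and at 0.03 ± 0.08 in KO IL4 libraries against 0.14 ± 0.02 in WT IL4 libraries (SD, n = 3 each). A few members carry the difference with vehicle: Scd1, Acss2 and Fads2 were called lower in KO, the median log2 fold change of the 9 was −0.11, and Acly, Acaca and Scd2 had higher means in KO than in WT, with no call.

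Between the genotypes, a few sterol enzymes were higher and Scd1 and Acss2 lower in KO. With vehicle, 4 members were higher and 3 lower in KO than in WT, where 18.8% of all genes were called (8.47% higher, 10.3% lower). With IL4 1 was higher and 1 lower, beside 12.4% of all genes (5.76% higher, 6.59% lower). With Dex 7 were higher and 2 lower, beside 17.2% (6.70% higher, 10.5% lower), and with Cort 2 were higher and 2 lower, beside 14.4% (5.46% higher, 8.95% lower). In either direction that is 21.2% of the members with vehicle, 6.06% with IL4, 27.3% with Dex and 12.1% with Cort. These shares were near those of all genes with vehicle and Cort. With IL4 and Dex they rest on few calls. Leaving out 1 library at a time gave 1 to 3 calls with IL4 and 5 to 8 with Dex. Whether any of these shares differs from that of all genes was not tested, and nothing is read from them. Srebf1 and Srebf2 differed by 0.08 ± 0.06 and −0.01 ± 0.08 with vehicle, with no call. DESeq2 called Insig2 lower in KO with IL4 (−0.22, adjusted p = 0.018; −0.21 ± 0.07 and 0.0509 in edgeR).

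Scd1 (chromosome 19, 44394455 to 44407879, minus strand) showed lower levels in KO under every treatment. With vehicle it was at 1.16, 1.52, 1.24 and 1.31 CPM in KO and 5.40, 4.14 and 2.60 CPM in WT, a log2 fold change of −1.63 ± 0.27 (SE, adjusted p = 0.000132). With IL4 it was at 2.46, 1.92 and 2.19 CPM in KO and 7.25, 5.77 and 3.84 CPM in WT (−1.35 ± 0.28, adjusted p = 0.00288). Every KO library lay below every WT library of its treatment. With Dex the change was −1.73 ± 0.27 (SE, adjusted p = 0.000102) and with Cort −1.72 ± 0.27 (SE, adjusted p = 0.000128).

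In WT, Scd1 was highest in library 1 and lowest in library 3 under each treatment. The same order held for the summed stromal, neutrophil and adipocyte markers. In the vehicle libraries the stromal sums were 735, 255 and 195 CPM and the adipocyte sums 73.6, 62.3 and 37.5 CPM. All 5 stromal markers and 4 of 5 tested neutrophil markers were lower in KO in each of the 4 comparisons, and no stromal marker averaged 0 in any group, while the neutrophil marker Camp did in KO Cort libraries. Summed adipocyte markers were lower in KO with IL4 (50.5 to 65.5 CPM against 96.8 to 130 CPM in WT), Dex and Cort, and overlapped with vehicle. Of the 2 tested, 1 was called lower in KO under each of IL4, Dex and Cort, and 1 higher with vehicle. The part of any of these cell types in the Scd1 difference was not tested. KO libraries, with stromal sums of 10.2 to 41.9 CPM, held 1.09 to 2.46 CPM of Scd1, and WT libraries numbered 3, which had the lowest WT sums (149.5 to 204 CPM), held 2.60 to 3.84 CPM.

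Acss2 (ENSMUSG00000027605, GRCm38 chromosome 2, 155517948 to 155585724, plus strand) was at 3.49, 3.20, 2.85 and 4.14 CPM in KO and 6.89, 5.45 and 6.56 CPM in WT with vehicle (−0.88 ± 0.18, adjusted p = 0.000932). With Dex it was at 4.11, 3.92, 4.46 and 4.60 CPM in KO and 7.91, 9.71 and 13.2 CPM in WT (−1.27 ± 0.18, adjusted p = 2.19e-05), and with Cort at 4.86, 2.94, 3.82 and 4.24 CPM in KO and 8.24, 8.16 and 10.7 CPM in WT (−1.19 ± 0.18, adjusted p = 6.13e-05). The groups did not overlap under any of these 3 treatments. With IL4 the difference was −0.56 ± 0.20 (adjusted p = 0.063), which DESeq2 called (−0.58, adjusted p = 0.0484). In WT, Acss2 was highest in library 3 with IL4, Dex and Cort, where the stromal sums were lowest. With vehicle it was highest in library 1, where the stromal sum was highest. The part of other cell types in the Acss2 difference was not tested. Stromal sums of KO and WT libraries did not overlap, so genotype and stromal content cannot be told apart.

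**Figure D5:**
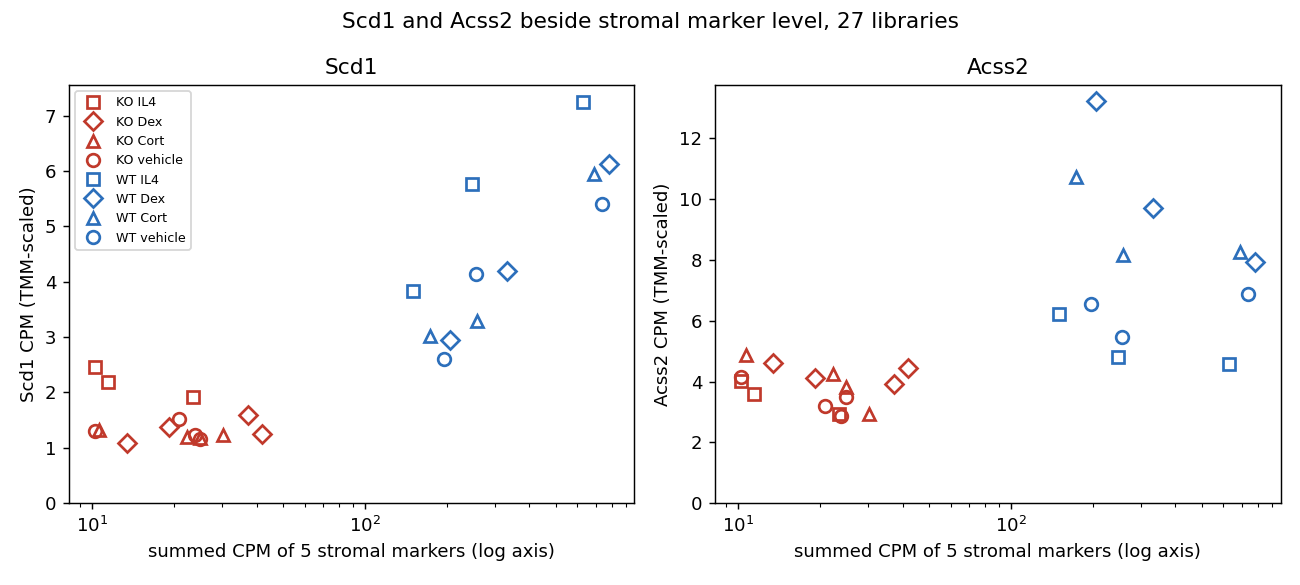
Level of Scd1 and of Acss2 in CPM (linear axis from 0) against the summed CPM of 5 stromal markers (log axis) in each of 27 libraries, KO in red and WT in blue, with a symbol for each treatment. KO libraries lie between 10.2 and 41.9 CPM of stromal markers and WT libraries between 149.5 and 781, and within WT Scd1 is highest, under each treatment, in the library with most stromal marker RNA. Neutrophil and adipocyte marker sums, not drawn, are highest in the same WT libraries.

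Fads2 was at 26.2, 23.1, 25.4 and 25.8 CPM in KO and 29.2, 34.8 and 37.5 CPM in WT with vehicle (−0.43 ± 0.09, adjusted p = 0.00135), with no overlap. It was not called under the other treatments, with 0.05 ± 0.10 with IL4, −0.06 ± 0.09 with Dex and 0.06 ± 0.09 with Cort. The Fads2 calls against vehicle in WT and this genotype call all rest on the same 3 WT vehicle libraries, which averaged 33.8 CPM. Means of the other groups ran from 21.0 CPM (WT IL4) to 25.3 CPM (KO Cort), so these calls are not separate observations.

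Ebp (ENSMUSG00000031168, GRCm38 chromosome X, 8185329 to 8193512, minus strand) was higher in KO under every treatment. With vehicle it was at 67.3, 72.6, 71.3 and 68.7 CPM in KO and 59.5, 55.4 and 57.8 CPM in WT (0.28 ± 0.05, adjusted p = 0.000191). With Dex it was at 79.2, 76.6, 76.04 and 74.95 CPM in KO and 61.6, 63.4 and 60.05 CPM in WT (0.31 ± 0.05, adjusted p = 7.35e-05). With Cort it was at 69.02, 76.97, 73.6 and 75.7 CPM in KO and 57.2, 59.4 and 62.5 CPM in WT (0.31 ± 0.05, adjusted p = 0.000118). The groups did not overlap, and the differences were no more than 1.24-fold. With IL4 the change was 0.17 ± 0.05 (SE, adjusted p = 0.0333), a call lost when any one of the 6 IL4 libraries was left out (adjusted p 0.0609 to 0.285). Between the genotypes with IL4, 1 member was called without WT IL4 library 1 or 3 or KO IL4 library 4.

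Mvd was at 57.6, 65.5, 56.5 and 64.6 CPM in KO and 47.2, 42.8 and 43.5 CPM in WT with Dex (0.46 ± 0.09, adjusted p = 0.00108), with no overlap. With Cort it was at 53.9, 53.5, 52.2 and 55.5 CPM in KO and 40.8, 41.9 and 43.3 CPM in WT (0.36 ± 0.09, adjusted p = 0.00922), a call lost without WT Cort library 1 (0.34, adjusted p = 0.0575). With vehicle Mvd (0.38 ± 0.09, adjusted p = 0.00473), Hmgcs1 (0.29 ± 0.09, adjusted p = 0.0223) and Dhcr7 (0.31 ± 0.10, adjusted p = 0.0285) were higher in KO, but their libraries overlapped. Without the Arg1-high libraries, KO vehicle 2 and 3 among them, these 3 calls were lost (Mvd 0.22, adjusted p = 0.161; Hmgcs1 0.14, 0.395; Dhcr7 0.23, 0.254), and the part of whatever sets those libraries apart was not tested. Leaving out WT vehicle library 1 or 3 or KO vehicle library 2 or 3 also ended the call of Hmgcs1 (adjusted p 0.0553 to 0.111), and these or KO vehicle library 4 that of Dhcr7 (0.0726 to 0.0991).

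With Dex the sterol enzymes Hmgcs1 (0.34 ± 0.09, adjusted p = 0.00852), Tm7sf2 (0.35 ± 0.09, adjusted p = 0.00736), Msmo1 (0.22 ± 0.06, adjusted p = 0.0145) and Cyp51 (0.25 ± 0.08, adjusted p = 0.0359) and the carrier Stard4 (0.22 ± 0.07, adjusted p = 0.0263) were higher in KO as well. Tm7sf2 was at 26.5, 27.1, 26.5 and 26.95 CPM in KO and 21.2, 21.00 and 20.8 CPM in WT, with no overlap. Without WT Dex library 2, 5 members were called with Dex: Hmgcs1 (0.29, adjusted p = 0.0592), Cyp51, Msmo1 and Stard4 were lost. Cyp51 was also lost without WT Dex library 1 or 3 or KO Dex library 1, 2 or 3 (adjusted p 0.0538 to 0.151 over these and WT Dex library 2). Msmo1 was lost without WT Dex library 3 or KO Dex library 1 (0.0561 to 0.0647), and Stard4 without WT Dex library 1 or KO Dex library 2 or 4 (0.0536 to 0.131). Without the Arg1-high libraries, Tm7sf2 (0.35, adjusted p = 0.0572) and Stard4 (0.20, adjusted p = 0.162) were not called.

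Among the other lists, Me1, the malic enzyme that supplies NADPH for fatty acid synthesis, was lower in KO with vehicle (−1.07 ± 0.11, adjusted p = 3.9e-07), IL4 (−0.87 ± 0.13, adjusted p = 8.78e-05), Dex (−1.08 ± 0.12, adjusted p = 6.36e-07) and Cort (−0.92 ± 0.11, adjusted p = 6.4e-06). Nr1h3 was higher in KO with vehicle (0.49 ± 0.09, adjusted p = 0.000252), IL4 (0.44 ± 0.09, adjusted p = 0.0026), Dex (0.47 ± 0.09, adjusted p = 0.000428) and Cort (0.41 ± 0.09, adjusted p = 0.00161). Of the 6 further sterol enzymes, 1 was higher in KO with vehicle, 2 with IL4 and 1 with Dex. Of the 11 tested genes of uptake and processing, 1 was higher in KO under each treatment and 1, Rnf145, a sterol-responsive ubiquitin ligase, was lower with vehicle (−0.24). Beside 18.8% of all genes called with vehicle, 12.4% with IL4, 17.2% with Dex and 14.4% with Cort, nothing is read from these counts.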

How the data were processed

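RNA of 27 macrophage libraries was measured by poly(A) sequencing with 50 bp paired reads. The values are raw read counts per gene as deposited by the authors. The submitters' processing notes name fastp 0.23.2, STAR 2.7.0, featureCounts, edgeR 3.38.4 and the build mm10. The library kit is directional per the labels, but how strand was set for counting was not found in those sources, so genes that overlap others are less certain.

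Counts were fitted with edgeR 4.0.16 (R 4.3.3): filterByExpr with a minimum count of 10, TMM scaling, 1 model with a mean for each of 8 groups over all 27 libraries, and quasi-likelihood F tests with Benjamini-Hochberg adjustment over 14589 genes. Calls required an adjusted p under 0.05. Log2 fold changes are fitted values with their SE. Libraries held 20162729 to 48023102 counts, and the common biological coefficient of variation was 0.122. The test was also run on simulated counts, drawn with the same spread for every gene and with independent libraries. That run did not cover the shared deviations of same-numbered libraries described below. Gene positions and exon lengths came from GENCODE vM21 (29815 of 29872 identifiers found, 57 not), and promoters from RefSeq.

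Members and lists were chosen with earlier results of these data known, including the removal of 4 libraries high in Arg1. Every member could be named, and those given in full were up to 6 per direction with the smallest adjusted p. From each other list up to 4 called genes were named, and some are not reported here.

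Within a genotype, same-numbered libraries deviated together (correlation across genes 0.112 to 0.713 over all pairs) except for Dex and vehicle in KO (lowest 0.00519). KO and WT libraries of a number did not (−0.236 to 0.0342). A fit with the number as a block was therefore an alternative, beside RLE scaling, no filter, the compared groups alone, DESeq2 1.42.0, and leaving out single libraries or the 4 libraries high in Arg1.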

Additional observations from a re-analysis of the deposited data

Results flagged for a closer look

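A single library stood apart from the other 3 of its group by Dixon's test in 4 of 99 combinations of member and KO group, where chance flags about 1 in 20. Nsdhl was at 28.6 CPM in KO Dex library 1, against 32.70 to 32.98 CPM in the other KO Dex libraries. Dhcr7 was at 51.0 CPM in KO vehicle library 1, against 62.9 to 64.4 CPM in the others. Insig1 was at 116 CPM in KO vehicle library 4, against 94.2 to 97.8 CPM, and Fasn at 228 CPM in KO vehicle library 3, against 187 to 190.3 CPM.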

How the results depend on the processing

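No called member changed direction under any alternative run. Of 140 member calls, DESeq2 kept 140, the replicate block 140, RLE scaling 137, no filter 113 and the fit of the compared groups alone 110. For KO against WT the block was a number shared across genotypes, which did not pair the libraries. Nothing is read from the calls it kept there. Leaving out the 4 libraries high in Arg1 kept 60 of 74, and leaving out single libraries kept 768 of 922. The following counts of members called differed from those reported by over 1.5 times. With only the compared groups in the fit, they were 10 for IL4 in KO, 1 for Dex in KO, 1 for Dex in WT, 4 for KO against WT with vehicle, 1 with IL4 and 10 for IL4 against Dex in KO. With no filter they were 0 for Dex in KO and 1 for KO against WT with IL4. With DESeq2 they were 1 for Cort in KO, 4 for KO against WT with IL4 and 1 for the interaction with Cort. Without the libraries high in Arg1 they were 2 for Dex in KO and 4 for Dex in WT. The shares of all genes called under these runs are not given here, and the cause of these changes was not tested.

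With the replicate block, pairing libraries by number, counts were 2 for Cort in KO, 2 for Cort in WT and 11 for Dex in KO, where numbers did not pair the libraries. The 7 calls it added for Dex in KO were Mvd (0.21, adjusted p = 0.0364), Sqle (0.16, 0.0109), Lss (0.19, 0.03), Scap (0.14, 0.0397) and Acss2 (0.34, 0.0486), all higher, and Scd2 (−0.25, 0.0412) and Fads2 (−0.22, 0.0416), both lower. It ended no call, and its other added calls that are not given above belong to comparisons whose counts moved by no more than 1.5 times.

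Leaving out 1 library at a time gave 15 to 17 calls for IL4 in KO and 13 to 18 in WT, 0 to 5 for Dex in KO and 1 to 2 in WT, and 0 to 3 for Cort in KO and 1 to 1 in WT. KO against WT gave 5 to 8 with vehicle, 1 to 3 with IL4, 5 to 8 with Dex and 3 to 5 with Cort. The interactions gave 0 to 1 for IL4, and 0 for Dex and for Cort. IL4 against Dex gave 12 to 18 in KO and 14 to 19 in WT, IL4 against Cort 17 to 21 in KO and 15 to 21 in WT, and Dex against Cort 0 in both. Fitted values of Scd1 and Acss2, the least abundant members, are limited by depth more than those of the others.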
